A study of Homo sapiens with 2 samples.

Results

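The genes described here encode enzymes and proteins of redox balance, of xenobiotic conjugation and of retinoid and steroid oxidation and reduction. They were chosen by gene symbol in the platform's probe annotation: symbols that start with ALDH, AKR, CYP and a digit, UGT, GST, DHRS, RDH, CBR, TXN, PRDX, GPX, SOD, SRXN, HSD17B, SULT or ABCC, together with HMOX1, TALDO1, BLVRB, FECH, UGDH and KEAP1, which were added by name. The annotation names 92 such genes among 13763, and 57 of them lay above the floor, a level explained below that 7164 of all genes reached. No gene of the AKR, CYP, SOD, SULT or ABCC families carries a symbol in the annotation used here, and ALDH and UGT are represented by 1 gene each. The reference gene table lists 231 protein-coding genes that fit the same rule, so 88 of these, and 4 pseudogenes, are analysed here.

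Both samples were S2-013 cells, an established line of pancreatic cancer, in which HOXB7, a homeobox transcription factor, had been knocked down and then re-expressed from a rescue plasmid. One culture also received a MEK inhibitor, and the other did not; the sources used here give neither the inhibitor's name nor a dose or exposure time. MEK is the kinase that activates ERK. Each condition was measured on 1 whole-transcript array from 100 ng of total RNA, so no value has a replicate error, no test was possible, and a difference describes these arrays and not the conditions. Since both cultures carry the knockdown and the rescue plasmid, nothing here bears on cells with their own HOXB7 alone, and the sources used here do not say whether the rescued line is 1 clone.

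Cells limit oxidative damage with linked enzyme systems. Thioredoxin and peroxiredoxins pass electrons from NADPH to peroxides, glutathione peroxidases do the same with glutathione, and glutathione transferases couple glutathione to electrophiles. The transcription factor NRF2 (gene NFE2L2), held in check by KEAP1, drives many of these genes through antioxidant response elements in their promoters and enhancers. Retinol is oxidised to retinal and then to retinoic acid, and dehydrogenases of the RDH and DHRS families set the balance between retinol and retinal.

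Values are log2 probe set values as deposited. A gene counted as above the floor when its higher value reached 4.78, the median over all named genes of the mean of both arrays. Below it whether a probe set was above background is unknown. Differences are log2 values with the inhibitor minus without it, so that 1 is 2-fold and 0.58 is 1.5-fold. Where the array has several probe sets above the floor for 1 gene, the gap between their differences was 0.16 in the median of 443 pairs. These pairs came from 145 genes, and 95% of them lay below 0.80. Left out were 45 genes with identical copies and pairs with a probe set below the floor, such as that of TXNIP. This gap is the only error measured here, and it leaves out variation between cultures. Across the 7164 genes above the floor, which are not replicates, Pearson's r between the arrays was 0.969.

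The inhibitor-treated array was lower for genes that ERK induces. All 8 feedback and early response genes examined (SPRY2, SPRY4, DUSP4, DUSP5, DUSP6, ETV4, ETV5 and EGR1) were at least 2-fold lower. The treated values of SPRY2 (4.72), SPRY4 (4.77), ETV4 (4.55) and ETV5 (4.06) did not reach the floor, which makes the sizes of these differences uncertain. DUSP4 (-1.88), DUSP5 (-1.13), DUSP6 (-1.26) and EGR1 (-2.94) reached it on both arrays. Ductal epithelial markers were above the floor for 5 of 5 named genes, with mean levels of 8.38 with and 8.41 without the inhibitor. Of these KRT7 reached the floor only with the inhibitor (4.91, against 4.56 without it). None of 5 named hepatocyte markers reached the floor (ALB, APOA1 and others, highest value 4.75). Of other cell types, 1 of 4 acinar and endocrine, 1 of 3 fibroblast, 2 of 3 leukocyte and 2 of 4 endothelial markers reached it. These were CTRC (0.30), DES (-0.54), CD68 (-0.43), TYROBP (-0.39), ESAM (-0.63) and CLDN5 (-0.06), of which ESAM was past 1.5-fold. CTRC reached the floor only with the inhibitor (4.96, against 4.66 without it). TYROBP reached it only without the inhibitor (4.85, against 4.46 with it), so the sizes of both differences are uncertain. Over all named markers, those below the floor included, the leukocyte markers had mean levels of 5.45 with and 5.75 without the inhibitor, the fibroblast markers 3.34 and 3.44, the endothelial markers 4.08 and 4.07 and the acinar and endocrine markers 3.66 and 3.62. Their part in the differences below was not tested.

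Most members had similar values on both arrays, and a few stood apart. TXNRD1, the cytosolic thioredoxin reductase, was 2.38-fold higher with the inhibitor. DHRS3, which reduces retinal to retinol, was 3.76-fold lower and TXNIP, the thioredoxin-interacting protein, 2.42-fold lower. These were the members past 2-fold: 1 of 57 higher, against 0.628% of all named genes above the floor, and 2 of 57 lower, against 1.05%. The median difference of the 57 members was 0.13, with 34 higher and 23 lower, against a median of 0.03 over all 7164 genes, of which 53.9% were higher. At 1.5-fold 9 members were higher and 2 lower, where 4.62% of all genes were higher and 3.60% lower. The differences of 7 members were larger than the 0.80 that bounds 95% of same-gene probe set pairs. They were those of TXNRD1, GSTK1, BLVRB, FECH, HMOX1, TXNIP and DHRS3, and 3.52% of all genes above the floor were as far from 0. HMOX1 (0.8007), FECH (0.8047) and BLVRB (0.8107) passed that limit (0.7993) only narrowly. Centring on the median difference left them below it, at 0.7745, 0.7785 and 0.7844. Removing a loess trend instead left GSTK1 below it as well, at 0.7925.

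The 6 genes added by name weigh on these counts. All 6 were higher and 5 reached 1.5-fold. The rule that names them was drawn up with earlier results of these data known. Among the 51 members above the floor that were found by symbol prefix alone, 28 were higher and 23 lower, and the median was 0.08. TXNRD1, GSTK1, SRXN1 and GPX8 were the 4 of these 51 (7.84%) that were at least 1.5-fold higher. The closest member outside that threshold was KEAP1, at 0.56, and the closest inside was GPX8, at 0.64. On the lower side there was a wide gap between TXNIP (-1.27) and the next member, DHRS4 (-0.44).

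**Figure D1:**
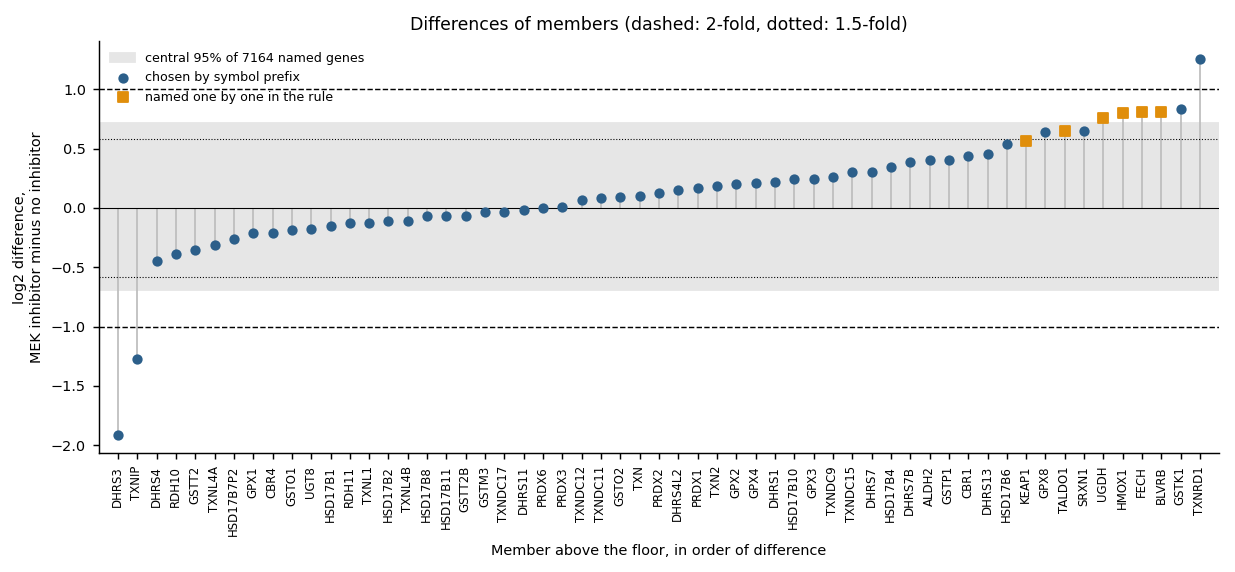
Log2 difference, MEK inhibitor minus no inhibitor, of the 57 members above the floor in order of size; circles are members found by symbol prefix and squares the 6 added by name, and the grey band holds the central 95% of 7164 named genes (-0.69 to 0.72). Of the members, 2 lie below the band and 6 above it, of which TXNRD1 and GSTK1 are circles.

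Within the thioredoxin system the reductase and the inhibitor stood at opposite ends while thioredoxin itself had nearly equal values. TXNRD1 passes electrons from NADPH to thioredoxin. It read 8.88 with and 7.62 without the inhibitor, a difference of 1.25 that ranked 21 from the top among 7164 genes. TXNIP binds reduced thioredoxin and also restrains glucose uptake. It read 6.67 with and 7.95 without the inhibitor, a difference of -1.27 that ranked 31 from the bottom. A second probe set annotated to TXNIP read 3.57 with and 3.58 without the inhibitor, both far below the floor, and averaging both probe sets gave -0.64. TXN, the cytosolic thioredoxin, read 11.14 with and 11.04 without the inhibitor (0.10). TXN2, its mitochondrial counterpart, read 7.08 and 6.90 (0.19). The mitochondrial reductase TXNRD2 (4.46 and 4.48) and TXNRD3 (4.17 with and 3.38 without the inhibitor, 0.79) were below the floor on both arrays.

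The promoter windows of TXNRD1 are shown because it had the highest difference of all members, and those of KEAP1 and GSTP1 because they carry the same short motif and code for the NRF2 repressor and for the pi-class transferase. Each is taken from RefSeq on GRCh38.p14, written in the direction of the gene from 250 bases before to 50 bases after a transcription start. Capitals mark the core of the antioxidant response element, TGACNNNGC, found on either strand. The first TXNRD1 start lies at chr12:104215529-104215828 and the second at chr12:104286782-104287081, both on the plus strand. The KEAP1 window that holds the motif lies at chr19:10502722-10503021 on the minus strand and the GSTP1 window at chr11:67583562-67583861 on the plus strand.
TXNRD1, first start: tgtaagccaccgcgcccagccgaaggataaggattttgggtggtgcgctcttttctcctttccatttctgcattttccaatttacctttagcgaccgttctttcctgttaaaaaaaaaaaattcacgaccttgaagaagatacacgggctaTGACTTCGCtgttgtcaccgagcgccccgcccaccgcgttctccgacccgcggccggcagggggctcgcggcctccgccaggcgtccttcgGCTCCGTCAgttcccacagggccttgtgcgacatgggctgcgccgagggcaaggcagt
TXNRD1, second start: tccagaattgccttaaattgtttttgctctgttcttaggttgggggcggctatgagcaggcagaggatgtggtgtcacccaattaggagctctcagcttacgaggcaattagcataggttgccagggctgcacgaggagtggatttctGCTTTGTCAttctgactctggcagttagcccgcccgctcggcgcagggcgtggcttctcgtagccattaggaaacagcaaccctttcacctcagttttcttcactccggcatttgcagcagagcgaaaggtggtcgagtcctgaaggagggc
KEAP1: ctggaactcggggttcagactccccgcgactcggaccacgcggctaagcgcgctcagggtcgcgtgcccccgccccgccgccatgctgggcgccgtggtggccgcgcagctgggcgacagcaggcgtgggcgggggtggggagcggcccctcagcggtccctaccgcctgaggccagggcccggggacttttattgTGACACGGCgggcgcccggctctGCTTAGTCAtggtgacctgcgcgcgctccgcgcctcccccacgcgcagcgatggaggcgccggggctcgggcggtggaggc
GSTP1: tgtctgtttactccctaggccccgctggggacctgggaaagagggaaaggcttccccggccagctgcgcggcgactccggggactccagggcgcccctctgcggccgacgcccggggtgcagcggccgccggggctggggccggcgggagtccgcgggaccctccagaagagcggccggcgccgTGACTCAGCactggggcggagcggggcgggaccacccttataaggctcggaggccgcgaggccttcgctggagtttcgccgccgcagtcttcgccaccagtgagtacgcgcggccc
The motif began at -99 on the gene's own strand and at -8 on the other strand in the first TXNRD1 window, and at -102 on the other strand in the second. KEAP1 had it at -54 on its own strand and at -31 on the other. The GSTP1 match at -66, TGACTCAGC, contains the AP-1 motif TGACTCA. Windows were found for 71 of the 92 members. The motif lay in at least 1 window of 9 of 44 members above the floor (20.5%), and in 16.1% of 27305 genes in the whole table, expressed or not. Counted by window, 15.6% of the 64 windows of members above the floor held it, and 14.9% of the 8271 windows of all named genes above the floor. It was found in 2 of the 8 members at least 1.5-fold higher that have a window, TXNRD1 and FECH. It was also found in members with differences near or below 0, such as GSTO1 (-0.19) and TXNL1 (-0.13). A match is a description of sequence and not evidence of binding.

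Sulfiredoxin and the peroxiredoxins form the peroxide branch of this system. SRXN1, which reactivates over-oxidised peroxiredoxins, read 7.72 with and 7.07 without the inhibitor, 1.57-fold higher. The peroxiredoxins above the floor had smaller differences. PRDX1, an abundant cytosolic peroxiredoxin, read 11.16 with and 10.997 without the inhibitor (0.17). PRDX2, also cytosolic, read 8.87 and 8.74 (0.13). The mitochondrial PRDX3 had a difference of 0.01 and PRDX6, which also acts on phospholipids, one of -0.004. PRDX4, of the endoplasmic reticulum, was below the floor (4.10 with and 4.39 without the inhibitor). The branch of PRDX and SRXN1 had a median of 0.13 over 5 genes above the floor.

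The rule also takes in proteins that share the thioredoxin fold or only part of the name. Of 11 genes named TXNDC or TXNL, 8 were above the floor, 4 higher and 4 lower, and none by 1.5-fold. TXNDC15 (0.30) was highest and TXNL4A, a component of the spliceosome, lowest (-0.31). TXNL4A read 7.69 with and 8.004 without the inhibitor, and its relative TXNL4B 6.34 and 6.45. TXNDC9 (0.26), TXNDC11 (0.08), TXNDC12 of the endoplasmic reticulum (0.06), TXNDC17 (-0.03) and TXNL1, which associates with the proteasome (-0.13), lay between them. TXNDC16 ended just below the floor (4.70 with and 4.21 without the inhibitor). All 8 differences were smaller than the 0.80 that 95% of same-gene probe set pairs stay below.

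**Figure D2:**
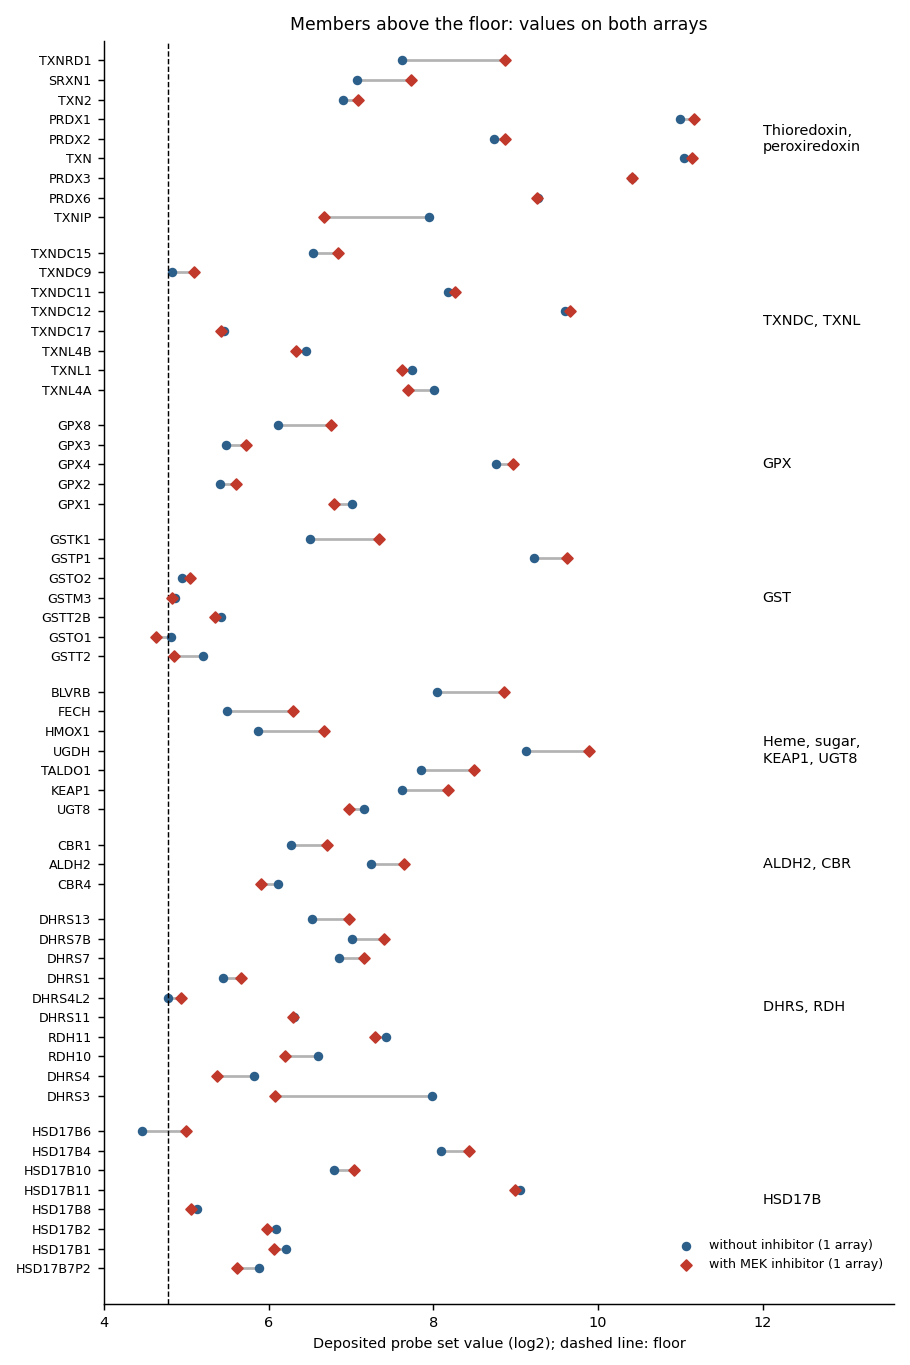
Deposited log2 values of the 57 members above the floor on the array without (circles) and with (diamonds) the MEK inhibitor, grouped by role; the dashed line is the floor of 4.78. The longest bars are those of DHRS3 and TXNIP, where the diamond is on the left, and of TXNRD1, where it is on the right; levels of different genes are not comparable, since each probe set has its own response.

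Glutathione peroxidases were mostly slightly higher. Of 5 genes above the floor 4 were higher, with a median of 0.21. GPX8, a peroxidase of the endoplasmic reticulum membrane, had the largest difference, 6.75 with and 6.11 without the inhibitor, 1.56-fold higher. GPX4, which reduces lipid hydroperoxides in membranes and protects from ferroptosis, read 8.97 with and 8.76 without the inhibitor (0.21). The secreted GPX3 had a difference of 0.24 and the gastrointestinal GPX2 one of 0.20. GPX1, the common cytosolic form, was the lower one, 6.79 with and 7.01 without the inhibitor (-0.22). GPX5, GPX6 and GPX7 were below the floor on both arrays.

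Among glutathione transferases GSTK1 stood apart. GSTK1, the kappa-class enzyme of mitochondria and peroxisomes, read 7.34 with and 6.505 without the inhibitor, 1.78-fold higher, which ranked 99 from the top among 7164 genes. GSTP1, the pi-class enzyme typical of epithelial tumours, read 9.63 with and 9.22 without the inhibitor (0.40). The other 5 genes above the floor ranged from -0.35 to 0.09. They were GSTO2 (0.09), GSTM3 (-0.04), GSTT2B (-0.07), GSTO1 (-0.19) and GSTT2 (-0.35). The median of the 7 was -0.04.

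The remaining 13 transferase genes were below the floor on both arrays, among them all 5 named alpha-class genes (GSTA1 to GSTA5) and the mu-class genes GSTM1, GSTM2, GSTM4 and GSTM5. GSTT2 and GSTT2B are near-identical copies whose values cannot be fully separated, and the reference table classes GSTT2 as a transcribed pseudogene. The mu-class genes are close copies of each other as well. GSTO1, at 4.82 without and 4.63 with the inhibitor, was the member just above the floor, and the pseudogene GSTM2P1, at 4.73 with the inhibitor, the one just below it.

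The genes of heme turnover, the pentose phosphate pathway, glucuronate supply and NRF2 control were added to the rule by name, so their common direction is given as a description only. HMOX1, the inducible heme oxygenase that opens the heme ring to biliverdin, read 6.67 with and 5.87 without the inhibitor, 1.74-fold higher. BLVRB, a biliverdin and flavin reductase, read 8.85 with and 8.04 without the inhibitor, 1.75-fold higher. FECH, ferrochelatase, inserts iron into protoporphyrin in the last step of heme synthesis. It read 6.30 with and 5.49 without the inhibitor, 1.75-fold higher.

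UGDH, which makes the UDP-glucuronate used in glucuronidation and in matrix glycans, read 9.88 with and 9.13 without the inhibitor, 1.69-fold higher. TALDO1, transaldolase of the pentose phosphate pathway, read 8.49 and 7.85, 1.56-fold higher. KEAP1, the adaptor that targets NRF2 for degradation, read 8.18 with and 7.62 without the inhibitor, 1.48-fold higher. Each of these genes has 1 probe set. By contrast UGT8, the only gene found with the UGT prefix, was slightly lower (6.97 with and 7.15 without the inhibitor). It uses UDP-galactose to make galactosylceramide and belongs to lipid synthesis more than to xenobiotic conjugation.

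Only 4 genes of the aldehyde and carbonyl families were named. ALDH2, the mitochondrial dehydrogenase of acetaldehyde and lipid aldehydes, read 7.64 with and 7.24 without the inhibitor (0.40). CBR1, a cytosolic carbonyl reductase of quinones and prostaglandins, read 6.70 with and 6.26 without the inhibitor (0.44). Its close relative CBR3 had a difference of similar size (0.40) but stayed below the floor, at 4.36 with and 3.95 without the inhibitor. CBR4, which serves mitochondrial fatty acid synthesis, was lower (-0.21). None of the 4 reached 1.5-fold.

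DHRS3 had the lowest difference of all members. It reduces all-trans-retinal to retinol, which limits the supply of retinoic acid, and is itself a gene that retinoic acid induces. It read 6.07 with and 7.99 without the inhibitor, a difference of -1.91 that ranked 7 from the bottom among 7164 genes, and both values were above the floor. DHRS3 has 3 promoter windows in the RefSeq table. The one that holds an AP-1 motif, TGACTCA in capitals, is shown because AP-1 is a common endpoint of ERK signalling. This motif was added after the values were seen. The window lies at chr1:12596564-12596863 on the minus strand, belongs to the start farthest downstream of the 3, and has the motif at -85.
DHRS3: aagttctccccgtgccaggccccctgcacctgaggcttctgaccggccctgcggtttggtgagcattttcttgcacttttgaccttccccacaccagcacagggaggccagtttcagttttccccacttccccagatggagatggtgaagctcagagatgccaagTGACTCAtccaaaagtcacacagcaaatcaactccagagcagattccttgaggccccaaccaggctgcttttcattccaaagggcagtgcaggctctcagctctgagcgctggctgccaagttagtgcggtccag
This motif, on either strand, was found in at least 1 window of 2 of 44 members above the floor (4.55%), DHRS3 and GSTP1, and in 6.05% of all genes, expressed or not. By window the shares were 3.12% for members above the floor and 3.49% for all named genes above it. DHRS3 was lower and GSTP1 slightly higher with the inhibitor. A match is not evidence of binding, and a link between the motif and these differences was not tested.

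The dehydrogenases nearest to DHRS3 in function were lower by much less. RDH10, which oxidises retinol to retinal in the opposite direction to DHRS3, read 6.20 with and 6.59 without the inhibitor (-0.39). RDH11, a retinal reductase, read 7.29 and 7.42 (-0.13). DHRS4, a peroxisomal reductase that also takes retinal, read 5.37 with and 5.82 without the inhibitor (-0.44). Its close copy DHRS4L2 went the other way, at 4.94 with and 4.78 without the inhibitor (0.16), and the signals of these copies may not be separable.

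The other DHRS genes above the floor were level or higher. DHRS13 read 6.98 with and 6.53 without the inhibitor (0.45), DHRS7B, an enzyme of ether lipid synthesis, 7.40 and 7.02 (0.38), and DHRS7 7.16 and 6.86 (0.30). DHRS1 had a difference of 0.22 and DHRS11 one of -0.02. The 10 DHRS and RDH genes above the floor were 5 higher and 5 lower, with a median of 0.07. DHRS2, DHRS7C, DHRS12, RDH8, RDH12, RDH13 and RDH16 were below the floor.

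The HSD17B enzymes, which interconvert keto and hydroxy forms of steroids and fatty acids, showed small differences. Of 8 genes above the floor, 3 were higher and 5 lower, with a median of -0.07. HSD17B6, which acts on androgens and retinol, was highest, at 4.999 with and 4.46 without the inhibitor (0.54), and passed the floor only with the inhibitor. HSD17B4, the peroxisomal bifunctional enzyme of fatty acid oxidation, read 8.43 with and 8.09 without the inhibitor (0.34). The mitochondrial HSD17B10 had a difference of 0.24.

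HSD17B11, a lipid droplet enzyme, read 8.99 with and 9.05 without the inhibitor. HSD17B1, which forms oestradiol, had a difference of -0.15 and -0.26 in its second probe set. HSD17B2, which runs that reaction in reverse, had one of -0.11. HSD17B8 had 6 probe sets with identical values, which were counted as 1 (-0.07). The pseudogene HSD17B7P2 was lowest (-0.26), and its parent gene HSD17B7 had nearly the same difference below the floor (-0.26). HSD17B3, HSD17B12, HSD17B13 and HSD17B14 were below the floor as well.

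The 35 members below the floor on both arrays were 18 higher and 17 lower, with a median of 0.06 and a range from -0.34 (TXNDC8) to 0.79 (TXNRD3). None of them differed by 2-fold and 1 differed by 1.5-fold, TXNRD3. Their higher values ran from 2.22 to 4.73.

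**Figure D3:**
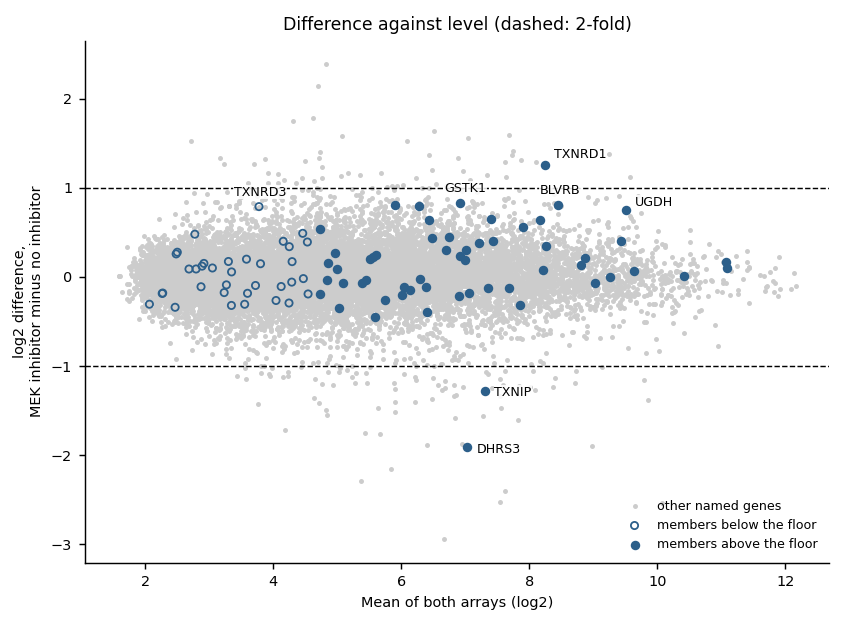
Log2 difference, MEK inhibitor minus no inhibitor, against the mean of both arrays for 13763 named genes (grey) and the members above (filled) and below (open) the floor; dashed lines mark 2-fold. TXNRD1 lies above the upper line, TXNIP and DHRS3 below the lower line, and the other 89 members between the lines.

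The members were also placed in the pathways they belong to. Each list below can be read against all 7164 genes above the floor, with a median of 0.03 and 53.9% higher. Of 36 genes in a list of NRF2 targets and regulators, 20 were named and all lay above the floor, with 17 higher, 3 lower and a median of 0.33. The list was drawn up with earlier results of these data known and overlaps the rule. Its 10 genes that are members were all higher, but HMOX1, TALDO1, BLVRB, UGDH and KEAP1 among them had been added to the rule by name. The 10 other genes were 7 higher and 3 lower, with a median of 0.09 and none past 1.5-fold. Those 7 include NFE2L2 (0.0007) and CUL3 (0.03), which were nearly level. NFE2L2, the gene of NRF2, read 7.34 with and 7.33 without the inhibitor. NQO1, GCLC and GCLM, classical NRF2 targets, carry no symbol in the annotation used here. Among the others the pentose phosphate genes TKT (0.39) and PGD (0.28) and the autophagy receptor gene SQSTM1 (0.44) were higher, while MAFG, a partner of NRF2 on DNA, had a difference of -0.32 and GSR, glutathione reductase, one of -0.10.

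Of 9 named genes for glutathione and NADPH supply, 8 were higher, with a median of 0.28. PGLS, the lactonase of the pentose phosphate pathway, read 7.09 with and 6.52 without the inhibitor (0.57), and TALDO1 was the 1 gene past 1.5-fold. Without TALDO1 the 8 genes that are not members had a median of 0.21. In the heme list 10 genes lay above the floor, 6 higher and 4 lower, with a median of 0.30. The 3 members, HMOX1, BLVRB and FECH, were the 3 past 1.5-fold, and the other 7 genes were 3 higher and 4 lower with a median of -0.10. HMOX2, the constitutive heme oxygenase, had a difference of -0.24 and BLVRA, the main biliverdin reductase, one of 0.29.

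The retinoid list had 6 genes above the floor, 5 of them lower, with a median of -0.42. Besides DHRS3, STRA6, the membrane receptor for retinol uptake, was 2-fold lower, at 5.01 with and 6.02 without the inhibitor (-1.01). CRABP2, a carrier of retinoic acid, had a difference of 0.09. STRA6 and CRABP2 were the only 2 of these genes that are not members, and they went opposite ways. The list leaves out DHRS4L2 (0.16) and HSD17B6 (0.54), which were above the floor and higher. Of the other DHRS genes above the floor that it leaves out, DHRS13 (0.45), DHRS7B (0.38), DHRS7 (0.30) and DHRS1 (0.22) were higher and DHRS11 (-0.02) lower. Over all 10 DHRS and RDH genes above the floor, 5 were higher and 5 lower, with a median of 0.07, so the list median depends on which genes were listed. The receptors of retinoic acid and the CYP26 enzymes that degrade it carry no symbol in the annotation used here. For the aryl hydrocarbon receptor pathway 3 genes were above the floor, with AHR at -0.06, TIPARP at 0.18 and ARNT at 0.35.

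**Figure D4:**
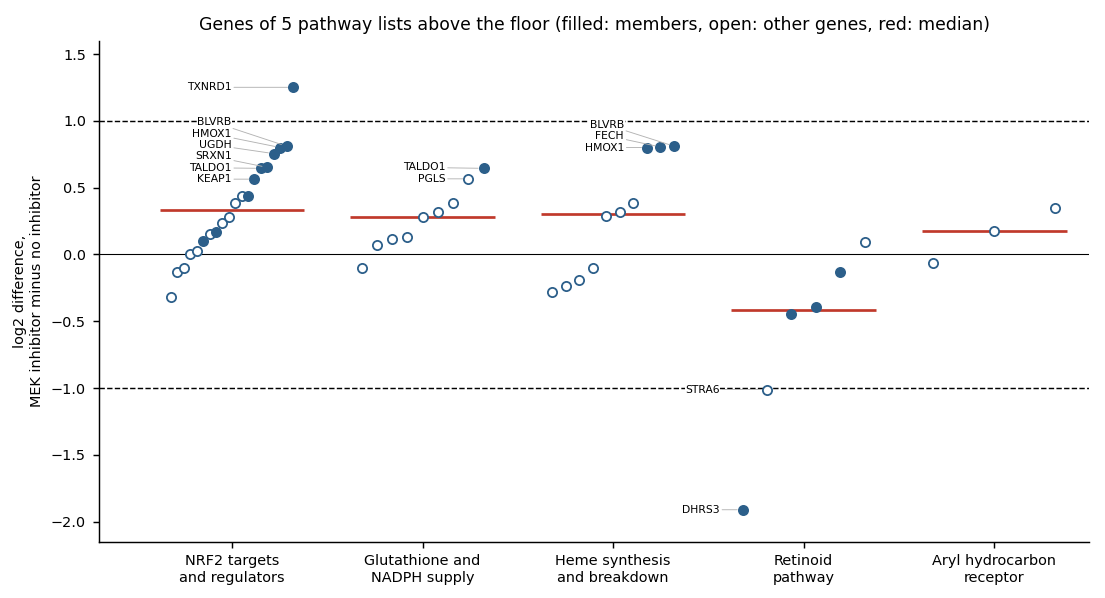
Log2 difference, MEK inhibitor minus no inhibitor, of the genes above the floor in 5 pathway lists; filled points are members, open points other genes, red bars medians and dashed lines 2-fold. In the NRF2 and heme lists the highest points are filled ones, and in the retinoid list DHRS3 (-1.91) and STRA6 (-1.01) are the lowest.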

How the data were processed

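Per the labels' protocols, RNA came from RNeasy columns and 100 ng of each sample was labelled with a GeneChip WT PLUS kit. The authors deposited 1 value per probe set and array, taken here as log2 from its range (1.16 to 13.4); every fold rests on that. Affymetrix Expression Console 1.3 was used, per the submitters' processing notes; the sources used here do not give its settings. Medians were 3.46 with and 3.49 without the inhibitor, so values were used as deposited. Such summaries compress large folds and hide differences in total RNA. Scanner signals and detection calls were not used here.

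Of 53617 probe sets, 16098 have 1 gene symbol in the platform annotation, none has several, and 37519 are unnamed here. Symbols starting with MIR or SCARNA were left out. The probe set with the highest mean stood for each gene. The reference gene table holds the Entrez identifiers of all 92 members. With 1 array per group nothing was tested. Counts of members past 2-fold and 1.5-fold are given beside those of all genes. Medians are given for families and lists with at least 3 genes. The median and share higher over all genes are given once for the members and once for the pathway lists.

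Named are the 6 genes added by name, members above the floor with an absolute difference of at least 0.5, the extremes of each family and members with several probe sets, and list genes by the same 0.5 limit with NFE2L2, NQO1, GCLM, GCLC and AHR. Others were named to account for every member. Members and lists were chosen with earlier results of these data known. The AP-1 motif was added after the values were seen. Protein identity within families was planned and not run. Alternatives were other floors, scalings, thresholds, averaged probe sets and left-out genes. The counting was tried on simulated data only with added differences larger than 2-fold, in genes above the floor. Smaller differences and false calls were not tried. Computations used Python 3.11.15, numpy 2.4.6, pandas 2.3.3, statsmodels 0.14.6 and matplotlib 3.10.9.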

Additional observations from a re-analysis of the deposited data

How the results depend on the processing

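No paired analysis was possible because there is only 1 array per condition, which also leaves no array to drop. A value was called moved when it changed by at least 0.16, the median disagreement between probe sets. Centring on the median difference shifted every difference by 0.03, so it could not move any. Removing a loess trend (-0.04 to 0.16) could hardly do so either. That none of the 42 values recomputed under each moved was therefore nearly fixed in advance. No count of members past 2-fold changed. HMOX1, FECH and BLVRB fell below the limit of 0.80 under both, and GSTK1 when the loess trend was removed. At 1.5-fold 9 of 57 members were higher, against 4.62% of all named genes above the floor. At 3-fold 0 members were higher, against 0.0838% of all these genes, and 1 (DHRS3) was lower, against 0.195%. With probe sets averaged, 1 member was at least 2-fold lower, because TXNIP then read -0.64; its second probe set alone read -0.01. With the floor at the 75th percentile (6.45) the HSD17B median was 0.24 over 3 genes, against -0.07. Without a filter the retinoid median was -0.18 over 10 genes, against -0.42. Without pseudogenes and TXNDC or TXNL genes, or without the 6 genes added by name, which were alternatives chosen after seeing the data, the counts past 2-fold stayed at 1 and 2. Whether dim probe sets exceed background limits every value near the floor.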
